A study of Homo sapiens with 12 samples.

Results

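*ATF4*, 6 bZIP transcription factors that it induces or pairs with (*ATF3*, *ATF5*, *DDIT3*, *CEBPB*, *CEBPG* and *JDP2*), the related factor *CEBPD* and the cofactors *NUPR1* and *TRIB3* were followed in HLE cells, a cell line from a human hepatocellular carcinoma. These 10 genes were taken by name from the 26258 Entrez identifiers of a table of RNA levels, and all 10 passed the filter of at least 1 CPM in at least 2 libraries, as did 13515 genes in all. CPM give the reads assigned to a gene for every 1000000 reads on genes. HLE cells had been transfected with a control siRNA (siCtrl), with siRNA against *ATF4* (siATF4) or with siRNA against YAP and TAZ (siY/T), the co-activators of the Hippo pathway, which are encoded by *YAP1* and *WWTR1*. Each was then given the solvent DMSO or the multikinase inhibitor Sorafenib (Srf), at 5 µM by the sample labels, while a legend of the study gives a slightly higher dose, and 2 libraries were sequenced for each of the 6 groups, 12 in all. All groups shared 1 cell line and 1 culture medium, and siRNA lowers a transcript without deleting the gene. The labels do not say whether the 2 libraries of a group came from separate cultures, and the study's methods speak of biological triplicates. The p-values below thus rest on the spread between the 2 libraries of a group, pooled over the 6 groups, which may not be that between cultures. The RNA is that of whole cultures, in which fewer cells with a transcript and less of it per cell cannot be told apart.

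ATF4 is the main transcriptional effector of the integrated stress response. Kinases that sense amino acid shortage, unfolded proteins, heme shortage or double-stranded RNA phosphorylate eIF2alpha, which slows translation in general while the ATF4 mRNA is translated more through its upstream open reading frames, and ATF4 transcription can also rise. ATF4 binds DNA as a dimer with other bZIP proteins, C/EBP family members among them, at CEBP-ATF composite elements. DDIT3 encodes CHOP, a bZIP factor linked to cell death under lasting stress, ATF3 and JDP2 encode bZIP factors that bind AP-1 and cyclic AMP response elements and often repress, and TRIB3 encodes a pseudokinase that binds ATF4 and CHOP and limits their activity. NUPR1 encodes a small stress-induced chromatin cofactor. In the liver this response is known for switching on amino acid synthesis, amino acid import and antioxidant genes.

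The promoters of the members were searched for 4 short motifs, shown because they are the kinds of site through which these factors bind DNA. RefSeq windows on GRCh38.p14, from 250 bases before to 50 after a transcript start, were at hand for 8 of the 10 members, and for 35116 windows in all. The motifs were TTGCATCA, a CEBP-ATF composite element that reads TGATGCAA on the other strand, with a match in 0.866% of all windows, its looser form TGATGNAAN, with 3.61%, the cyclic AMP response element TGACGTCA, with 1.85%, and the AP-1 site TGANTCA, with 7.71%. Both strands were searched, and a match to the first motif is also a match to the second. The exact composite element lay in 1 window of *CEBPG* and 1 of *JDP2*, both read on the strand opposite to the gene, and its looser form also in 1 window of *ATF3*. AP-1 letters lay in a window of *ATF5* and in both overlapping windows of *DDIT3*, as the same site. The stretches of 30 bases, 5′ to 3′ on the strand of the gene, have the match in capitals:
*CEBPG*, chr19:33374061-33374090, plus strand, match at -42 from the start: gcgcggcgtcTGATGCAACctgccggcaac
*JDP2*, chr14:75427996-75428025, plus strand, match at -16: tagccggggcTGATGCAACccgtcccgccg
*ATF3*, chr1:212565206-212565235, plus strand, match at -191: aaggtcaggaTGATGGAAGgctgtcatatt
*ATF5*, chr19:49928707-49928736, plus strand, match at -188: ggagagtgctgTGACTCAtgctggactcta
*DDIT3*, chr12:57520735-57520764, minus strand, match at -241: gcgcgcgcaTGACTCAcccacctcctccgt
No match to any of the 4 motifs lay in the windows of *ATF4*, *CEBPB* and *TRIB3*. A match describes the letters of a window and not binding, which was not measured here.

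The libraries held 41408348 to 53619732 reads on genes, and 3 reads, the limit that a count of 0 allows, stand for 0.0559 to 0.0724 CPM. Of 7 hepatocyte markers, 6 stayed at or under 0.278 CPM in every library, *ALB* among them, and *SERPINA1* reached 2.32 CPM, so defining markers of hepatocytes were all but absent from these cells. The summed hepatocyte markers were 1.56 to 2.61 CPM in the siY/T libraries and 0.0429 to 0.665 CPM in the others. Of 4 epithelial markers 3 were tested. By the rule for calls given below, 2 were lower and 1 higher with siY/T in DMSO, where 3.61% of all genes fell and 11.0% rose. With siY/T in Sorafenib 2 were lower, where 3.84% of all genes fell. With siATF4 2 were lower at either treatment, where 14.1% of all genes fell in DMSO and 18.7% in Sorafenib. *KRT8*, at 655 to 2558 CPM, fell in all 4 comparisons, while *KRT18*, at 312 to 1089 CPM, fell with siY/T (-1.65 in DMSO and -1.16 in Sorafenib, log2) and was at -0.01 and 0.54 with siATF4, short of the fold. *CDH1*, at 0.0396 to 7.93 CPM, rose with siY/T in DMSO (1.02) and fell with siATF4 (-1.23 and -3.14). The epithelial *EPCAM* reached at most 0.701 CPM. The mesenchymal *VIM* ranged from 1952 to 2916 CPM and *CDH2* from 3.77 to 6.92 CPM. *AFP* and *GPC3*, markers of fetal liver and hepatocellular carcinoma, were at or under 0.0966 CPM. Blood cell and endothelial markers (*PTPRC*, *PECAM1*) were at or under 0.0403 CPM. The siRNA targets went with the labels. *YAP1* in siY/T cells was at 18.7% of siCtrl in DMSO and 17.9% in Sorafenib, *WWTR1* at 35.6% and 34.7%, and *ATF4* in siATF4 cells at 39.6% and 17.9%. In siATF4 cells *WWTR1* was also lower than in siCtrl cells in DMSO, with a log2 fold change of -0.70 (adjusted p = 1.29e-05), whereas in Sorafenib it differed by -0.09 (adjusted p = 0.369). The part of these markers and of *WWTR1* in the results was not tested.

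**Figure D1:**
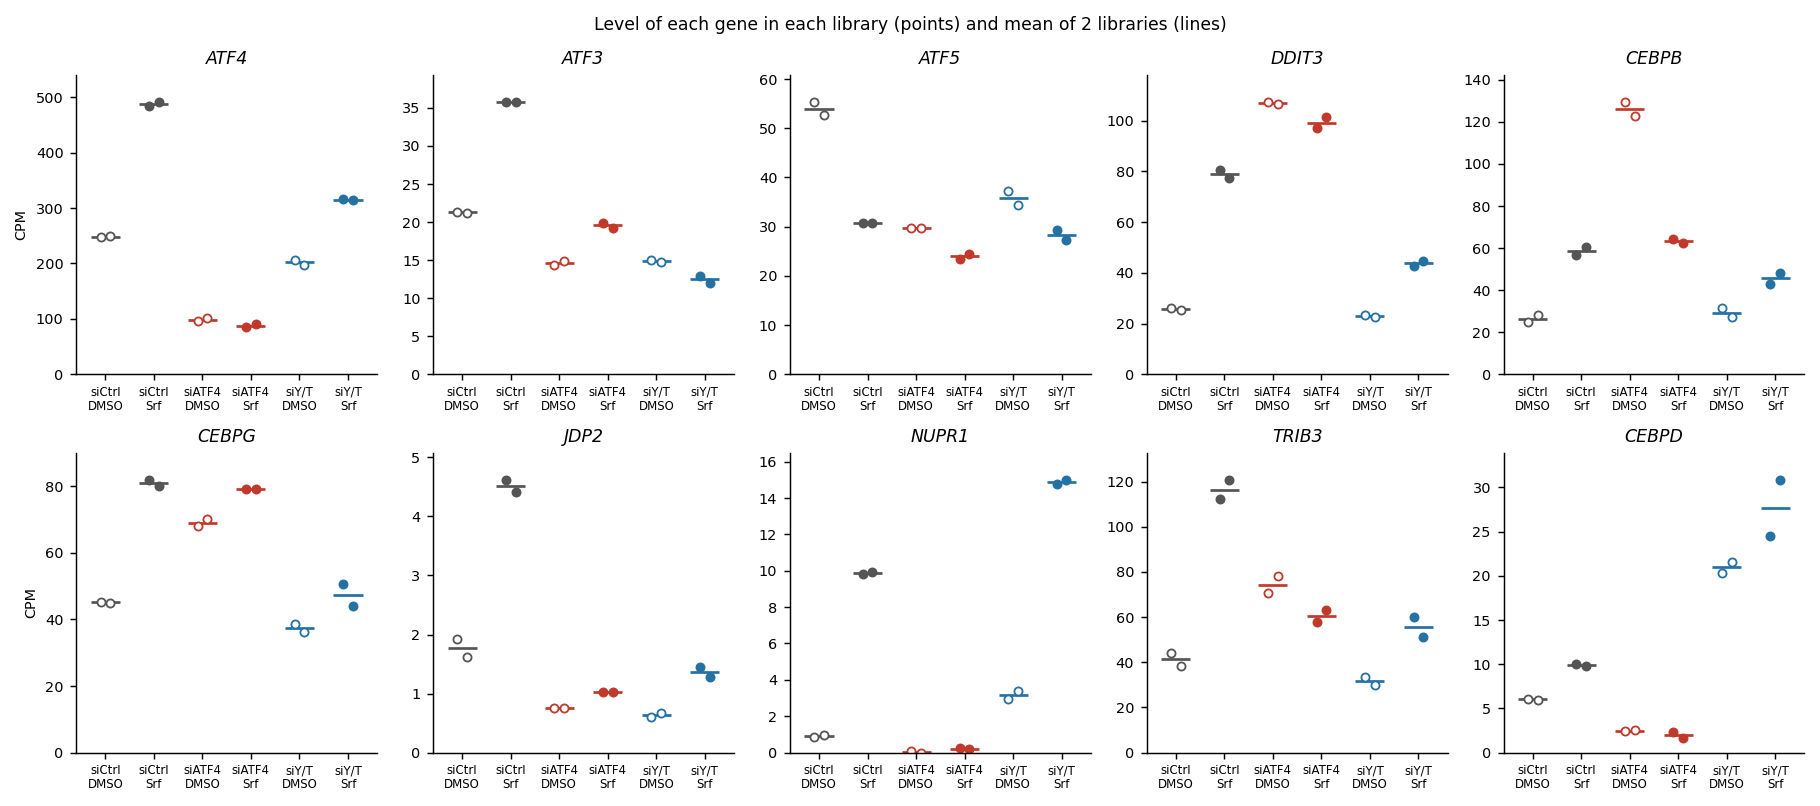
Level of the 10 genes in each of the 12 libraries, in CPM on linear axes that start at 0. Open points are DMSO and filled points Sorafenib libraries, grey is siCtrl, red siATF4 and blue siY/T, and lines are means of 2 libraries. *ATF4* was highest in siCtrl Srf cells, between 484 and 492 CPM, *DDIT3* and *CEBPB* were highest in siATF4 DMSO cells, and *NUPR1* and *CEBPD* in siY/T Srf cells.

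Expressed per kilobase of the annotated transcript, *ATF4* was by far the most abundant member in siCtrl DMSO cells. It stood at 175 CPM per kb, followed by *DDIT3* with 28.5, *ATF5* with 26.9, *TRIB3* with 17.5, *CEBPB* with 14.4, *CEBPG* with 12.1, *ATF3* with 10.97 and *CEBPD* with 4.81 CPM per kb. *JDP2* with 0.329 and *NUPR1* with 0.173 CPM per kb were the scarcest, and they are also the members with the longest annotated transcripts, 5378 and 5291 bases on GRCh37. These lengths are from GENCODE, while the reads were counted over RefSeq exons, which can differ. The values per kb and their order are therefore approximate. Exons of 4 members overlap other genes, and the strand setting of the counting is not given in the sources used here. *DDIT3* shares 156 bases with *MARS1*, itself at 227 to 456 CPM, *ATF5* shares 196 bases with *NUP62* at 122 to 196 CPM and shorter stretches with *IL4I1* and, on its own strand, *MIR4751*, and *CEBPB* overlaps *CEBPB-AS1*, which reached at most 2.38 CPM. *NUPR1* shares 630 bases and *DDIT3* 63 bases with Ensembl genes on their own strand that have an identifier only and were not used here.

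Positions of genes are those of GENCODE on GRCh37, the build of the deposited counts. A change was called at a two-sided P under 0.05 and a log2 fold change of at least 0.58 in size, from limma on log2(CPM + 0.5), a scale that understates the change of low genes. Adjusted p-values are from limma with Benjamini-Hochberg adjustment over the 13515 genes. Errors of log2 fold changes are SE with n = 2 libraries per group, from 1 spread per gene shared by all groups. The groups differed in spread. A chi-square for the difference between the 2 libraries, averaged over genes with at least 50 reads in both together, was 20.7 in siY/T DMSO and 8.30 in siY/T Srf cells. In the siCtrl and siATF4 groups it ran from 2.98 to 5.77, so the shared error can be too small for siY/T comparisons. A difference between responses to Sorafenib was called at an adjusted p under 0.05. Beside each count of members stands the share of all genes tested that met the same rule in the same direction.

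Sorafenib raised 9 of the 10 members in siCtrl cells and lowered 1, *ATF5*. Among all genes, 12.3% rose and 5.15% fell, and the median log2 fold change was 1.05 over the members and 0.05 over all genes. Under quantile normalization, which sets all libraries to 1 distribution, 47.7% of the calls among all genes were falls in place of 29.5%, and *CEBPD* lost its call with a log2 fold change of 0.44. In siATF4 cells 0 members rose and 1 fell, *CEBPB*, in limma, where 5.68% of all genes rose and 2.95% fell, and the median was -0.14 over the members and 0.03 over all genes. Quantile normalization put 45.3% of the calls of all genes on the lower side there, in place of 34.2%. At an unadjusted P under 0.05 in limma, whatever the fold, 4 members were higher in siATF4 cells, and edgeR and DESeq2 each called 1 higher, *NUPR1*, on few reads that are given with that gene. In siY/T cells 6 members rose and 0 fell, with 5.83% and 4.14% of all genes, and a median of 0.64 against 0.04 over all genes. At an unadjusted P under 0.05 in limma 2 members were lower there, and edgeR and DESeq2 called 0 lower. Falls made up 41.5% of those calls over all genes and 53.1% under quantile normalization.

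**Figure D2:**
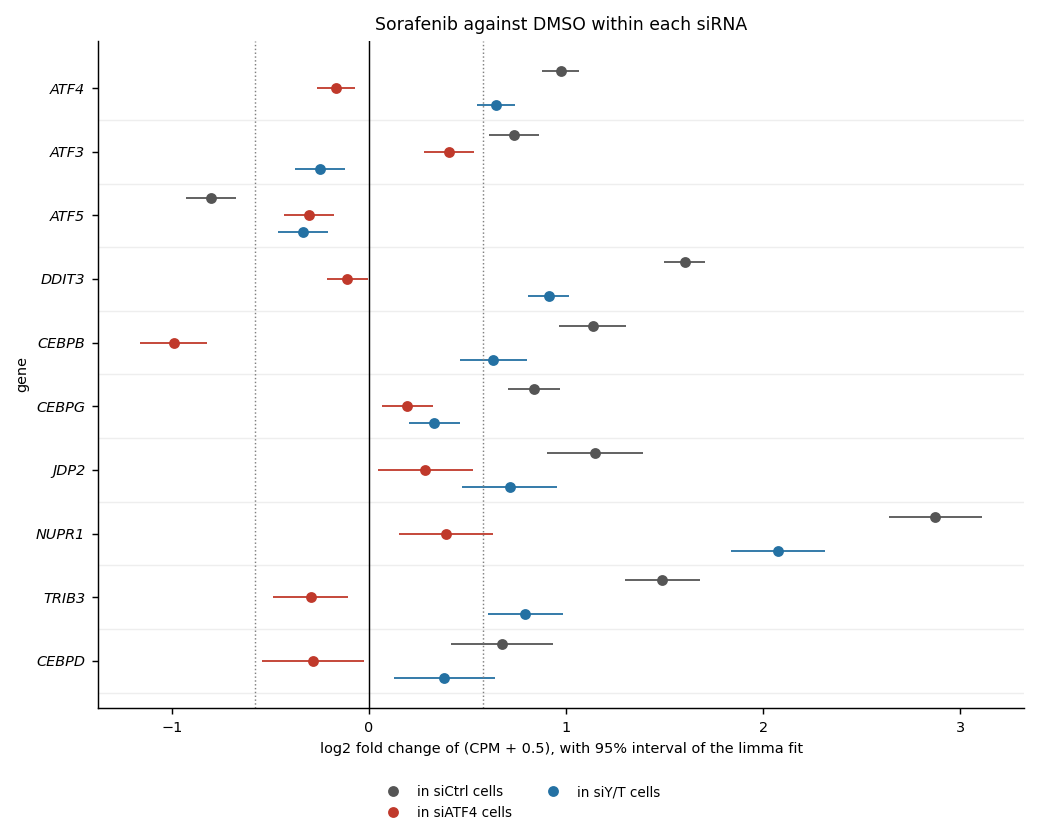
Log2 fold change of Sorafenib against DMSO for each of the 10 genes in siCtrl (grey), siATF4 (red) and siY/T cells (blue), with the 95% interval of the limma fit on 2 libraries per group. Dotted lines mark the fold used for calls. The grey points run from -0.80 for *ATF5* to 2.87 for *NUPR1*, while 9 of the 10 red points lie between the dotted lines.

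*ATF4* itself, Entrez identifier 468, at chr22:39915700-39918688 on the plus strand, was read at 248 CPM and 249 CPM in siCtrl DMSO, 484 CPM and 492 CPM in siCtrl Srf, 96.2 CPM and 101 CPM in siATF4 DMSO and 84.5 CPM and 90.6 CPM in siATF4 Srf cells. It was at 207 CPM and 197 CPM in siY/T DMSO and 317 CPM and 314 CPM in siY/T Srf cells. The libraries of no 2 neighbouring groups overlapped, with siCtrl Srf on top and siATF4 Srf at the bottom. Sorafenib raised the level in siCtrl cells, with a log2 fold change of 0.97 ± 0.044 and a fold of 1.96 (limma, adjusted p = 4.61e-09). In siATF4 cells the value was -0.17 ± 0.044, and this response differed from that of siCtrl cells by -1.14 (adjusted p = 2.84e-07). The transcript left by siATF4 was 39.6% of control in DMSO and 17.9% in Sorafenib, with log2 fold changes of -1.33 ± 0.044 and -2.47 ± 0.044. In siY/T cells *ATF4* rose by 0.64 ± 0.044 with Sorafenib, and the difference from the response of siCtrl cells was -0.33 (adjusted p = 0.00348). Against siCtrl it was at -0.30 in siY/T DMSO cells, short of the fold, and fell to -0.63 in siY/T Srf cells (limma, adjusted p = 1.84e-07).

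*DDIT3*, the gene of CHOP, Entrez identifier 1649, at chr12:57910371-57915520 on the minus strand, went the opposite way to *ATF4* when *ATF4* was lowered in DMSO. Its libraries read 26.2 CPM and 25.3 CPM in siCtrl DMSO and 108 CPM and 107 CPM in siATF4 DMSO cells, and 80.6 CPM and 77.6 CPM in siCtrl Srf and 97.02 CPM and 101 CPM in siATF4 Srf cells. The siY/T cells held 23.4 CPM and 22.8 CPM in DMSO and 42.9 CPM and 44.9 CPM in Sorafenib. The 4 siATF4 libraries thus lay above all 8 others. *DDIT3* rose 4.10-fold with siATF4 in DMSO, a log2 fold change of 2.04 ± 0.048 (limma, adjusted p = 6.24e-12), and was at 0.32 ± 0.048 in Sorafenib, which did not reach the fold. The log2 fold change with Sorafenib was 1.60 ± 0.048 in siCtrl and 0.91 ± 0.048 in siY/T cells, both rises, while in siATF4 cells the value was -0.11 ± 0.048. With siY/T it was at -0.15 in DMSO and fell in Sorafenib, at -0.84 ± 0.048 (limma, adjusted p = 3.37e-08). Its overlapping neighbour *MARS1* had log2 fold changes of 0.15 with siATF4 in DMSO and 0.30 with Sorafenib in siCtrl cells, and the part of its reads in those of *DDIT3* was not tested.

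*CEBPB*, a C/EBP factor of the acute phase and of stress responses, Entrez identifier 1051, at chr20:48807367-48809205 on the plus strand, also rose with siATF4 in DMSO, and it fell with Sorafenib in siATF4 cells. Its libraries held 24.9 CPM and 28.01 CPM in siCtrl DMSO and 129.6 CPM and 123 CPM in siATF4 DMSO cells, against 56.8 CPM and 60.4 CPM in siCtrl Srf and 64.2 CPM and 62.3 CPM in siATF4 Srf cells. In siY/T cells it was at 31.4 CPM and 27.2 CPM in DMSO and 42.9 CPM and 48.2 CPM in Sorafenib. The highest group was siATF4 DMSO, and the siY/T DMSO libraries overlapped those of siCtrl DMSO. With siATF4 in DMSO *CEBPB* rose 4.71-fold, the largest rise of any member in that comparison, with a log2 fold change of 2.24 ± 0.078 (limma, adjusted p = 8.33e-11), and in Sorafenib it was at 0.11 ± 0.078, with a 95% interval of -0.06 to 0.28. Sorafenib raised *CEBPB* by 1.14 ± 0.078 in siCtrl cells and changed it by -0.99 ± 0.078 in siATF4 cells, a fall (limma, adjusted p = 6.38e-07). The response in siATF4 cells was -2.13 (adjusted p = 2.22e-07) away from that in siCtrl cells. In siY/T cells Sorafenib raised it by 0.63, a call that was lost without the siY/T DMSO library 2 (0.53) or without the siY/T Srf library 2 (0.55).

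*CEBPG*, a C/EBP partner of *ATF4* with no activation domain of its own, Entrez identifier 1054, at chr19:33864591-33873592 on the plus strand, moved by less. It was at 45.4 CPM and 44.98 CPM in siCtrl DMSO, 68.1 CPM and 70.1 CPM in siATF4 DMSO, 81.9 CPM and 80.2 CPM in siCtrl Srf and 79.2 CPM and 79.2 CPM in siATF4 Srf cells, and at 38.6 CPM and 36.2 CPM in siY/T DMSO and 50.6 CPM and 43.98 CPM in siY/T Srf cells. Its 3 highest groups were both siATF4 groups and siCtrl Srf. It rose with siATF4 in DMSO by 0.61 ± 0.061 (limma, adjusted p = 1.27e-06), just past the fold, while in Sorafenib the value was -0.03 ± 0.061 with an interval of -0.16 to 0.10, and 0.0092 under TMM scaling. Sorafenib raised it by 0.84 ± 0.061 in siCtrl cells and left it at 0.19 in siATF4 and 0.33 in siY/T cells, short of the fold in both. With siY/T it fell in Sorafenib, at -0.78 ± 0.061 (limma, adjusted p = 4.21e-07). The exact composite element shown above lies in 1 of its RefSeq windows.

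*JDP2*, the other gene with that element, Entrez identifier 122953, at chr14:75894419-75940814 on the plus strand, was scarce and lower with both siRNAs. It was at 1.92 CPM and 1.62 CPM in siCtrl DMSO and 4.62 CPM and 4.42 CPM in siCtrl Srf cells. With siATF4 it was at 0.750 CPM and 0.753 CPM in DMSO and 1.02 CPM and 1.03 CPM in Sorafenib, and with siY/T at 0.605 CPM and 0.676 CPM and 1.45 CPM and 1.29 CPM. The siCtrl libraries lay above all others at either treatment. The log2 fold changes were -0.86 ± 0.11 and -1.72 ± 0.11 with siATF4 and -0.99 ± 0.11 and -1.42 ± 0.11 with siY/T, in DMSO and Sorafenib, and *JDP2* fell in all 4 comparisons (limma, largest adjusted p = 1.61e-05). No other member was called lower in all 4. *ATF4* and *ATF3* were also below siCtrl in all 4, but not always by the fold. *ATF4* was at -0.30 with siY/T in DMSO, and *ATF3* at -0.53 with siATF4 and -0.50 with siY/T in DMSO. Sorafenib raised it by 1.15 ± 0.11 in siCtrl and by 0.71 ± 0.11 in siY/T cells, and the value in siATF4 cells was 0.29 ± 0.11. Over the alternatives that did not leave out a library, the siY/T value ran from 0.53 to 1.08. The 0.53 was that with a pseudocount of 1, below the fold.

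*ATF3*, an early stress-induced repressor of the same family, Entrez identifier 467, at chr1:212738676-212794119 on the plus strand, was lower with siY/T than with siATF4 under Sorafenib. It was at 21.3 CPM and 21.2 CPM in siCtrl DMSO and 35.8 CPM and 35.8 CPM in siCtrl Srf cells, at 14.4 CPM and 14.8 CPM in siATF4 DMSO and 19.9 CPM and 19.2 CPM in siATF4 Srf cells, and at 14.98 CPM and 14.8 CPM in siY/T DMSO and 12.9 CPM and 12.02 CPM in siY/T Srf cells. The lowest group was siY/T Srf, and the siY/T DMSO and siATF4 DMSO libraries overlapped. In Sorafenib *ATF3* fell with both siRNAs, at -0.86 ± 0.059 with siATF4 and -1.49 ± 0.059 with siY/T, and the direct test put siATF4 above siY/T cells by 0.63 ± 0.059 (limma, adjusted p = 3.31e-07). In DMSO the values were -0.53 and -0.50, short of the fold. The value with siY/T passed the fold under quantile normalization (-0.61) and with DESeq2 (-0.59). Sorafenib raised *ATF3* by 0.74 ± 0.059 in siCtrl cells, and the value was 0.41 ± 0.059 in siATF4 and -0.25 ± 0.059 in siY/T cells, on opposite sides of 0. The response in siY/T cells differed from that in siCtrl cells by -0.99 (adjusted p = 3.56e-05).

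*ATF5*, a stress-responsive factor close to *ATF4* in sequence, Entrez identifier 22809, at chr19:50431959-50437192 on the plus strand, was the member that Sorafenib lowered in control cells. It was at 55.4 CPM and 52.6 CPM in siCtrl DMSO and 30.8 CPM and 30.8 CPM in siCtrl Srf cells, a log2 fold change of -0.80 ± 0.059 (limma, adjusted p = 1.43e-07). It was at 29.6 CPM and 29.6 CPM in siATF4 DMSO, 23.5 CPM and 24.4 CPM in siATF4 Srf, 37.3 CPM and 34.5 CPM in siY/T DMSO and 29.4 CPM and 27.3 CPM in siY/T Srf cells. The siCtrl DMSO libraries stood above the other 10. In DMSO *ATF5* fell with both siRNAs, at -0.85 ± 0.059 with siATF4 and -0.58 ± 0.059 with siY/T, and in Sorafenib the values were -0.36 and -0.12, short of the fold. The fall with siY/T in DMSO was at the edge of the fold and lost its call without siCtrl DMSO library 1 (-0.55), without siY/T DMSO library 2 (-0.53) and with a pseudocount of 1 (-0.576).

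*TRIB3*, the pseudokinase that restrains *ATF4* and CHOP, Entrez identifier 57761, at chr20:343479-378203 on the plus strand, went in opposite directions with siATF4 in DMSO and in Sorafenib. It was at 44.1 CPM and 38.5 CPM in siCtrl DMSO and 70.5 CPM and 78.01 CPM in siATF4 DMSO cells, a rise with a log2 fold change of 0.84 ± 0.088, and at 112 CPM and 121 CPM in siCtrl Srf and 57.8 CPM and 62.9 CPM in siATF4 Srf cells, a fall with one of -0.94 ± 0.088. The libraries of siCtrl and siATF4 cells did not overlap at either treatment. In siY/T cells it was at 33.5 CPM and 30.1 CPM in DMSO and 59.9 CPM and 51.2 CPM in Sorafenib, which overlapped the siATF4 Srf libraries, and in Sorafenib it fell, at -1.06 ± 0.088 (limma, adjusted p = 7.03e-07). *TRIB3* rose with Sorafenib by 1.49 ± 0.088 in siCtrl and by 0.79 ± 0.088 in siY/T cells, and in siATF4 cells the value was -0.30 ± 0.088. The responses in siATF4 and siCtrl cells differed by -1.78 (adjusted p = 8.79e-07).

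*NUPR1*, Entrez identifier 26471, at chr16:28544029-28550329 on the minus strand, was nearly lost from siATF4 cells and higher with siY/T in DMSO. It was at 0.877 CPM and 0.954 CPM in siCtrl DMSO and 9.82 CPM and 9.91 CPM in siCtrl Srf cells, and at 2.95 CPM and 3.38 CPM in siY/T DMSO and 14.8 CPM and 14.99 CPM in siY/T Srf cells. In siATF4 DMSO cells 4 reads were found in library 1 and 0 in library 2, and in siATF4 Srf cells 12 and 9 reads, against 487 and 487 reads in siCtrl Srf cells. By reads pooled over the 2 libraries of a group, *NUPR1* was 22.2-fold lower in siATF4 than in siCtrl cells in DMSO, on 4 and 90 reads, with an exact 95% binomial interval of 8.36 to 83.1 that covers counting error alone, and 46.7-fold lower in Sorafenib, with an interval of 30.4 to 75.8. The log2 fold changes of the limma fit were -1.39 ± 0.11 and -3.87 ± 0.11, of which the first is held near 0 by the pseudocount. It ranged from -4.47 to -0.88 over the other pseudocounts, filters, scalings and tools, so the difference of -2.48 between the Sorafenib responses of siATF4 and siCtrl cells rests on that scale. With edgeR this difference was -1.14 and with DESeq2 -1.07, and neither was called. *NUPR1* rose with Sorafenib by 2.87 ± 0.11 in siCtrl and by 2.07 ± 0.11 in siY/T cells, and in siATF4 cells the pooled reads were 5.13-fold higher with Sorafenib, on 21 and 4 reads, with an interval of 1.73 to 20.5. With siY/T *NUPR1* rose in DMSO by 1.37 ± 0.11 and was at 0.57 ± 0.11 in Sorafenib, short of the fold, which it passed with a pseudocount of 0.1 (0.59).

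*CEBPD*, a C/EBP factor of inflammation and growth arrest, with Entrez identifier 1052, was likewise lower with siATF4 and higher with siY/T. It was at 6.10 CPM and 5.95 CPM in siCtrl DMSO and 9.98 CPM and 9.85 CPM in siCtrl Srf, at 2.44 CPM and 2.54 CPM in siATF4 DMSO and 2.28 CPM and 1.67 CPM in siATF4 Srf, and at 20.3 CPM and 21.6 CPM in siY/T DMSO and 24.5 CPM and 30.8 CPM in siY/T Srf cells. The 4 siATF4 libraries were the lowest and the 4 siY/T libraries the highest. *CEBPD* fell with siATF4, at -1.13 ± 0.12 in DMSO and -2.09 ± 0.12 in Sorafenib, and rose with siY/T, at 1.72 ± 0.12 and 1.42 ± 0.12 (limma, largest adjusted p of the 4 = 2.24e-06). In Sorafenib it was 11.4-fold lower in siATF4 than in siY/T cells. Sorafenib raised it in siCtrl cells by 0.68 ± 0.12, and the difference between the responses of siY/T and siCtrl cells, -0.29 (adjusted p = 0.229), was not called and had an interval of -0.66 to 0.07.

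Lowering *ATF4* in DMSO left the members divided. Besides *ATF4*, the genes *ATF5*, *JDP2*, *NUPR1* and *CEBPD* fell and *DDIT3*, *CEBPB*, *CEBPG* and *TRIB3* rose, 5 and 4 of 10, where 14.1% of all genes fell and 8.57% rose. The fall of *ATF4*, the target of the siRNA, was set by the treatment, and it is included in these counts and medians. The median log2 fold change was -0.69 over the members and -0.0013 over all genes. Under Sorafenib 6 members fell (the target *ATF4*, *ATF3*, *JDP2*, *NUPR1*, *TRIB3* and *CEBPD*) and 0 rose, where 18.7% of all genes fell and 10.3% rose. The medians were -0.90 over the members and -0.0082 over all genes. At an unadjusted P under 0.05 in limma, whatever the fold, 1 member was higher, *DDIT3*, and edgeR and DESeq2 called 0 higher. Among all genes falls were 64.6% of the calls there, and 51.5% under quantile normalization.

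The siY/T cells were compared with the same siCtrl libraries, so the values of the 2 siRNAs are given side by side. In DMSO 2 members fell with siY/T, *ATF5* and *JDP2*, and 2 rose, *NUPR1* and *CEBPD*, where 3.61% of all genes fell and 11.0% rose, and the median was -0.29 over the members and 0.07 over all genes. Falls were 24.7% of the calls of all genes, and 36.0% under TMM scaling or 43.0% under quantile normalization. In Sorafenib 6 fell (*ATF4*, *ATF3*, *DDIT3*, *CEBPG*, *JDP2* and *TRIB3*) and *CEBPD* rose, where 3.84% of all genes fell and 6.11% rose, with medians of -0.70 and 0.05. The direct comparison of siATF4 with siY/T cells in Sorafenib had *NUPR1*, *CEBPD* and the siRNA target *ATF4* lower and *ATF3*, *DDIT3* and *CEBPG* higher in siATF4 cells, 3 and 3 of 10, where 23.7% of all genes were lower and 14.8% higher. Quantile normalization moved the median of all genes in this comparison by 0.12 and the share of lower calls from 61.5% to 48.5%, while 6 members were again called. For *TRIB3* the direct difference was 0.12 ± 0.088, with an interval of -0.07 to 0.31.

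**Figure D3:**
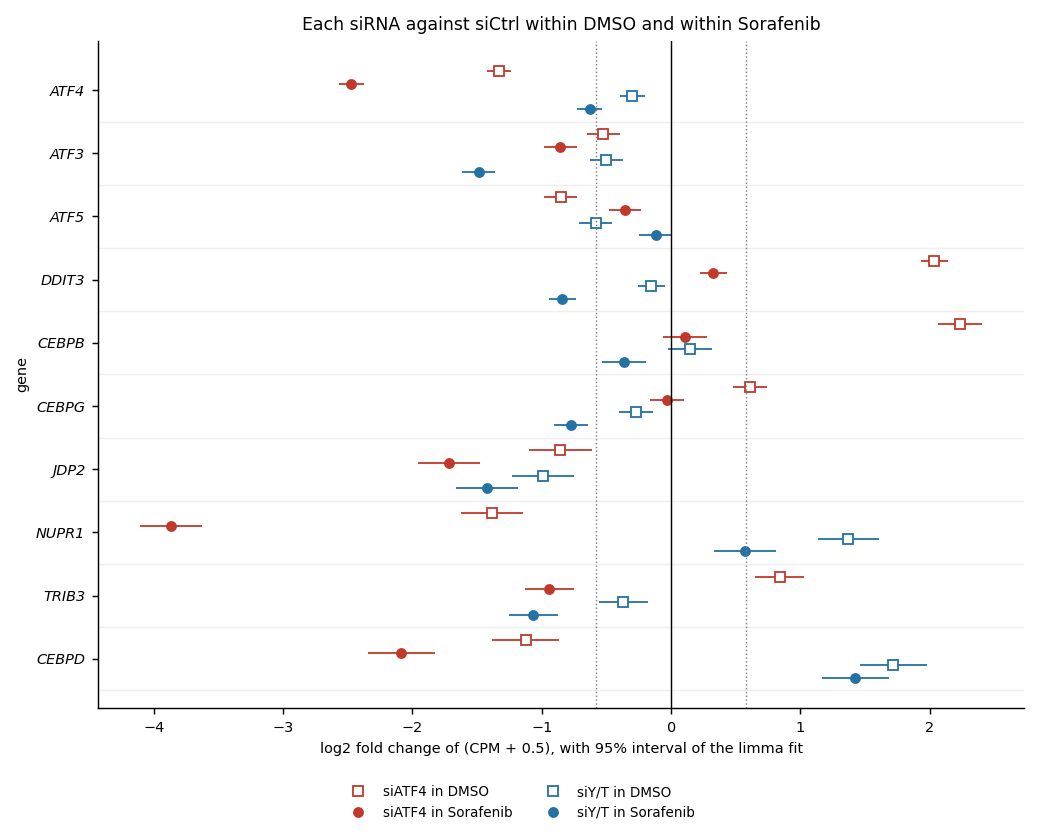
Log2 fold change of siATF4 (red) and siY/T (blue) against siCtrl for each of the 10 genes, in DMSO (open squares) and in Sorafenib (filled circles), with the 95% interval of the limma fit on 2 libraries per group. Dotted lines mark the fold used for calls. With siATF4 in DMSO, *DDIT3* and *CEBPB* stand at 2.04 and 2.24 while *ATF4* stands at -1.33, and *NUPR1* and *CEBPD* lie on opposite sides of 0 for the 2 siRNAs.

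The change with Sorafenib itself depended on the siRNA for most members. With siATF4 the response was lower than in siCtrl cells for 9 members, the siRNA target *ATF4* among them, and higher for *ATF5*. Of all genes, 21.8% had a lower and 19.3% a higher response at the same threshold. The lower ones ran from -0.33 for *ATF3* to -2.48 for *NUPR1*, with -2.13 for *CEBPB*, -1.78 for *TRIB3* and -1.71 for *DDIT3*. The value of *NUPR1* rests on the pseudocount, and it was -1.14 with edgeR and -1.07 with DESeq2, not called in either. In all, edgeR called 8 members lower and DESeq2 7, the latter without *JDP2* as well. With siY/T it was lower for 7 and higher for 1, again *ATF5*, where 14.2% of all genes were lower and 7.81% higher. The lower ones ran from -0.33 for *ATF4* to -0.99 for *ATF3*, and *CEBPD* and *JDP2* were not called, the latter at -0.43 with an interval of -0.78 to -0.09.

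The wider response was read from lists of related genes. Of 41 listed *ATF4* targets, the amino acid synthesis, transport, tRNA synthetase and stress genes that *ATF4* is known to switch on, 40 were tested. With siATF4 12 fell and 4 rose in DMSO, beside 14.1% and 8.57% of all genes, with a median of -0.01, and 18 fell in Sorafenib, beside 18.7%, with a median of -0.50. The largest falls in DMSO were those of *PHGDH* (-2.12), the first enzyme of serine synthesis, *CBS* (-1.71), which makes cystathionine, the lipoprotein receptor *VLDLR* (-1.49) and *ASNS* (-1.42), the asparagine synthetase. In Sorafenib they were those of *DDIT4* (-3.29), a brake on mTORC1, *CBS* (-2.81), the glutathione-degrading *CHAC1* (-2.76) and the peptide hormone *ADM2* (-2.71). With Sorafenib 13 of the 40 rose in siCtrl and 7 in siY/T cells, whereas 1 rose and 4 fell in siATF4 cells, beside rises of 12.3%, 5.83% and 5.68% and, in siATF4 cells, falls of 2.95% among all genes, with medians of 0.37, 0.23 and -0.07. The largest rises in siCtrl cells were those of *ADM2* (2.35), *CHAC1* (2.28), *DDIT4* (1.93) and *SLC7A11* (1.48), the cystine importer. With siY/T 12 fell and 4 rose in DMSO, beside 3.61% and 11.0% of all genes, with a median of -0.45. In Sorafenib 16 fell and 1 rose with siY/T, beside 3.84% and 6.11%, with a median of -0.47. The falls in Sorafenib were led by *SLC7A5* (-1.71), *SLC7A11* (-1.67), *STC2* (-1.48) and *ASNS* (-1.26). These counts are descriptions of lists chosen with results of these data known.

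**Figure D4:**
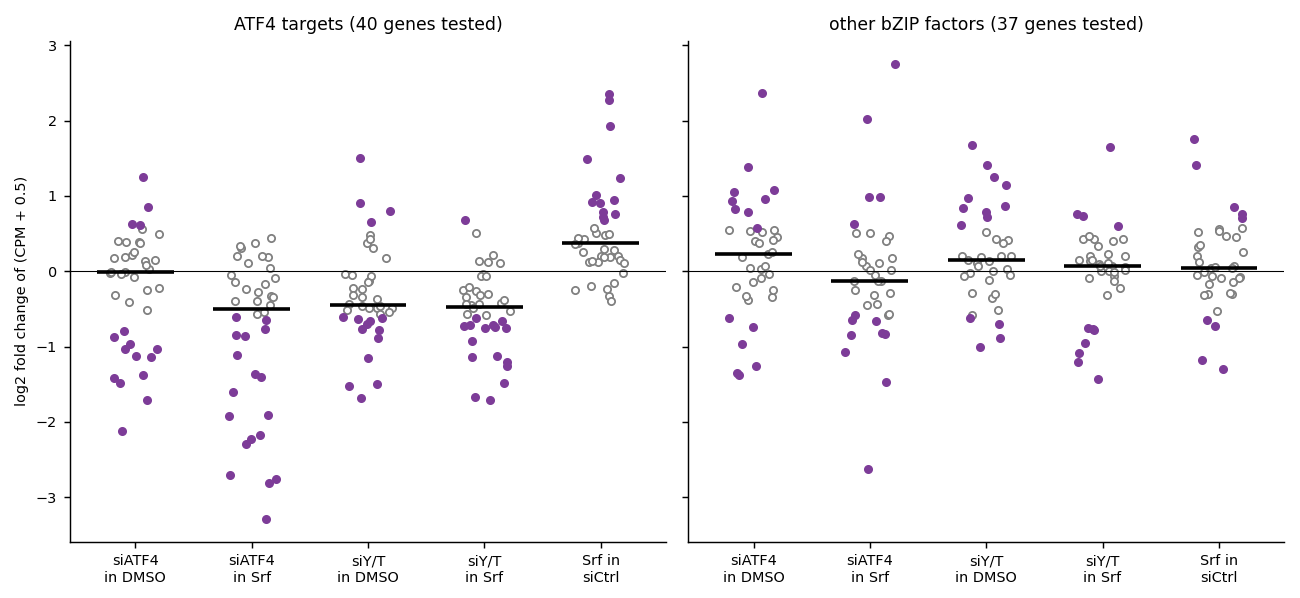
Log2 fold change of each tested gene of the list of *ATF4* targets (left, 40 genes) and of the other bZIP factors (right, 37 genes) in 5 comparisons. Filled points were called, open points were not, and black lines are medians. With siATF4 in Sorafenib the median was -0.50 for the targets and -0.13 for the other bZIP factors.

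Other bZIP genes did not move as 1 group. Of 44 listed, 37 were tested, and with siATF4 6 fell and 9 rose in DMSO, beside 14.1% and 8.57% of all genes, and 9 fell and 5 rose in Sorafenib, beside 18.7% and 10.3%, with medians of 0.23 and -0.13. The small Maf factor *MAFF* (2.37 in DMSO and 2.76 in Sorafenib) and the AP-1 subunit *FOSL1* (1.39 and 2.03) rose in both, and the clock output factor *DBP* (-1.38 and -2.63) fell in both. With siY/T 4 fell and 10 rose in DMSO, beside 3.61% and 11.0% of all genes, and 7 fell and 4 rose in Sorafenib, beside 3.84% and 6.11%, and there *JUN* (-1.42), *FOSL1* (-1.20) and *MAFF* (-1.08) were lower. *MAFF* and *FOSL1* moved in opposite directions with the 2 siRNAs in Sorafenib, and the direct difference was 3.84 ± 0.10 for *MAFF* and 3.22 ± 0.12 for *FOSL1* (limma, adjusted p = 2.38e-12 and 5.59e-11).

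Of 12 genes upstream of *ATF4*, those of the eIF2alpha kinases, the phosphatase subunits and eIF2B, all tested, 1 rose with siATF4 in DMSO, where 8.57% of all genes did, and 3 in Sorafenib, where 10.3% of all genes did. The response to Sorafenib in siATF4 cells was above that in siCtrl cells for 7 of the 12 and below it for 1, beside 19.3% and 21.8% of all genes. Their medians with siY/T were -0.07 in DMSO and -0.04 in Sorafenib. *PPP1R15A*, the stress-induced subunit of the eIF2alpha phosphatase, rose with siATF4 by 2.35 ± 0.063 in DMSO and 1.89 ± 0.063 in Sorafenib (limma, adjusted p = 9.88e-12 and 4.66e-11). With Sorafenib *EIF2S1*, which encodes eIF2alpha, fell in siCtrl cells, at -0.62 ± 0.047. *PPP1R15A* is also 1 of 8 genes linked to CHOP. Among these, 4 rose and 1 fell with siATF4 in DMSO, beside 8.57% and 14.1% of all genes, and the death receptor *TNFRSF10B* (0.95) and the BH3-only gene *PMAIP1* (0.77) were among those that rose while *CHAC1* (-0.87), which is also among the *ATF4* targets, fell. In Sorafenib 1 rose and 3 fell with siATF4, beside 10.3% and 18.7%, among them *BCL2L11* (-1.05) and *BBC3* (-0.69), further BH3-only genes. Of 3 relatives of the cofactors *TRIB1* was tested, and it rose with siY/T in DMSO by 0.80 ± 0.046.

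Genes outside the members were ranked by how closely their levels followed *ATF4* over the 12 libraries, so no member could be listed. By Pearson's r of log2(CPM + 0.5) among the 11109 such genes whose mean reached 5 CPM, the closest were *PCK2* (0.992), the mitochondrial phosphoenolpyruvate carboxykinase, *TTC7B* (0.990), the glycine transporter gene *SLC6A9* (0.981), *CBS* (0.981) and *ZNF816-ZNF321P* (0.974). These r are descriptions over 12 points that fall into 6 pairs of like libraries. For the members themselves, r with *ATF4* ran from -0.47 (*CEBPB*) to 0.88 (*NUPR1*) over the 12 libraries. Over the libraries without siATF4 it ran from -0.49 (*ATF5*) to 0.99 (*TRIB3*). *PCK2* had means of 28.3 CPM in siCtrl DMSO, 63.0 CPM in siCtrl Srf, 11.8 CPM in siATF4 DMSO, 10.8 CPM in siATF4 Srf, 22.2 CPM in siY/T DMSO and 33.6 CPM in siY/T Srf cells, which is the order of *ATF4* in all 6 groups.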

How the data were processed

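RNA of 12 HLE libraries in 6 groups of 2 was analysed from 1 table of CPM deposited by the authors, who mapped reads to hg19 with STAR, kept unique hits, counted them over RefSeq exons with QuasR and divided by the reads on genes. Within 0.001 read, 100% of values were whole multiples of 1 read, so reads were recovered. No column was left unmapped.

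The filter kept genes that reached 1 CPM in 2 or more libraries. Their log2(CPM + 0.5) entered a limma 3.58.1 fit (R 4.3.3) of 6 group means, with the variance following the mean. edgeR 4.0.16 and DESeq2 1.42.0 on the recovered reads, pseudocounts of 0.1 and 1, no filter, a filter at 5 CPM, TMM, quantile normalization, a block for the replicate number, adjusted P, a fit of only the groups compared and leaving out each library were alternatives. The fits were tested on simulated reads.

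The members and lists were chosen with earlier results of these data known. Named were all members, the siRNA targets, up to 4 called list genes per comparison with a mean above 5 CPM and the largest changes, and the 5 genes most like *ATF4*. *MARS1* and the other overlapping genes were named after values were seen. Positions are those of GENCODE v44lift37 on GRCh37, and promoter letters those of RefSeq on GRCh38.p14. Intervals and limits of counts cover counting error alone.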

Additional observations from a re-analysis of the deposited data

Results flagged for a closer look

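The response to Sorafenib in siATF4 cells differed from that in siCtrl cells for all 10 members, the siRNA target *ATF4* among them, by the test of the difference itself. The rule was an adjusted p under 0.05 in limma, which 21.8% of all genes met with a lower and 19.3% with a higher response. Expressed as log2 fold change in siATF4 minus that in siCtrl cells, the difference was -1.14 for *ATF4*, -0.33 for *ATF3*, 0.50 for *ATF5* and -1.71 for *DDIT3*. It was -2.13 for *CEBPB*, -0.64 for *CEBPG* and -0.96 for *CEBPD*, the 3 C/EBP genes. For *JDP2* it was -0.86, for *TRIB3* -1.78 and for *NUPR1* -2.48, where the 4 and 0 reads of siATF4 DMSO cells leave the value to the pseudocount. Neither edgeR nor DESeq2 called the difference for *NUPR1*, and DESeq2 did not call that for *JDP2*.

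The response in siY/T cells differed from that in siCtrl cells for 8 members, where 14.2% of all genes had a lower and 7.81% a higher response. The difference, siY/T minus siCtrl, was -0.33 for *ATF4*, -0.99 for *ATF3*, 0.46 for *ATF5*, -0.69 for *DDIT3*, -0.51 for *CEBPB*, -0.51 for *CEBPG*, -0.80 for *NUPR1* and -0.69 for *TRIB3*. Both sets of differences share the siCtrl libraries.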

How the results depend on the processing

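Over 23 alternatives, of which 12 left out 1 library each, 2249 of the 2268 values of the 100 member and comparison pairs kept their direction and their side of the threshold. The other 19, 10 that lost a call, 7 that gained one and 2 that changed sign, belonged to 12 of the 100. Neither sign change was of a called value: *CEBPG* with siATF4 in Sorafenib was at 0.0092 under TMM scaling, and *JDP2* in siATF4 against siY/T cells in Sorafenib at 0.096 under quantile normalization. The number of members called changed by over 1.5 times in 1 comparison, Sorafenib against DMSO in siATF4 cells, from 1 to 2 with a pseudocount of 0.1, with edgeR and with DESeq2, since *NUPR1* was then called at 1.18, 2.26 and 2.32. Leaving out libraries moved no such count by over 1.5 times. The filter at 5 CPM left *JDP2* out of the test. Calls lost or gained and not given above were those of the difference of the Sorafenib response for *JDP2*, at -0.89 with siATF4 under DESeq2 (adjusted p = 0.0535), and at -0.47 with siY/T and a pseudocount of 1, where it was called (adjusted p = 0.0184). For all these the cause was not tested. The replicate numbers of the labels were not shown to pair the libraries. Deviations from the group means correlated between -0.28 and 0.19 over 15 pairs of groups, 4 of them over 0.1. With the replicate number as a block, 9 members were called with siATF4 in DMSO, 6 with siATF4 in Sorafenib, 4 and 7 with siY/T, and 10 with Sorafenib in siCtrl cells, and 0 of the 100 calls changed.

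At a median of 47939446 reads per library depth limits *NUPR1*, with 0 to 12 reads in the siATF4 libraries, and *JDP2*, with 28 to 38 in the siATF4 DMSO and siY/T DMSO libraries. With 2 libraries per group, a leave-one-out fit assumes that the lone library varies like the other groups.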

Other observations

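The 3 PAR bZIP genes *DBP*, *TEF* and *HLF*, a subfamily known from circadian output, were lower with siATF4. They belong to the 37 other bZIP factors tested. Of those 37, 6 fell and 9 rose with siATF4 in DMSO, and 9 fell and 5 rose in Sorafenib. Among all genes 14.1% fell and 8.57% rose in DMSO, and 18.7% fell and 10.3% rose in Sorafenib. The log2 fold changes in DMSO and in Sorafenib were -1.38 ± 0.11 and -2.63 ± 0.11 for *DBP*, -1.35 ± 0.083 and -0.83 ± 0.083 for *TEF*, and -1.26 ± 0.090 and -1.47 ± 0.090 for *HLF* (limma, adjusted p of *TEF* in Sorafenib, the largest of the 6 = 1.07e-06). With siY/T in DMSO *HLF* rose by 1.67 ± 0.090 and *DBP* by 1.14 ± 0.11. Sorafenib raised *DBP* by 1.76 and *HLF* by 1.41 in siCtrl cells.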
